A study of Arabidopsis thaliana with 17 samples.

Results

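The suspensor and the chalazal endosperm of young Arabidopsis thaliana seeds were compared. Both are thought to pass nutrients inward, the suspensor to the embryo and the chalazal endosperm to the rest of the endosperm. The members were chosen by label: the 2 suspensor arrays and the 3 chalazal endosperm arrays, 5 of 17 arrays in the series. The other 12 arrays, 2 in each of embryo proper, micropylar endosperm, peripheral endosperm, chalazal seed coat, general seed coat and whole seed, entered the estimate of spread and show where else a gene was active. All groups were of the genotype Ws-0, with no mutation or treatment, from 38 to 46 day old plants kept in continuous light at 20 °C. Siliques were 1.1 to 1.4 cm long, and only seeds with a globular embryo of 24 to 32 µm were used. Compartments were cut by laser from paraffin sections of 5 or 7 µm, and 2 to 4 ng of RNA were amplified before hybridisation to the Affymetrix ATH1 array. The labels number biological replicates but do not tie a capture to a plant or a pool of seeds, so the p-values cover only the variation among these arrays, which may be technical.

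The suspensor is a short row of cells that anchors the embryo at the micropylar pole and is later lost. It pushes the embryo into the endosperm and passes sugars and hormones to it. The chalazal endosperm is a multinucleate cyst at the opposite pole, above the end of the vascular strand through which the mother plant unloads sugars and amino acids. In Arabidopsis the endosperm at this stage is a shared cytoplasm with many nuclei, and genes of the type I MADS-box family are among the transcription factors known from it.

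Values are array intensities on a linear scale, given per array in the order of the replicate numbers. A difference is the suspensor mean minus the chalazal endosperm mean of log2(intensity + 31), with its standard error (SE). A gene is called where limma's adjusted p is under 0.05 over all 22746 probe sets. Folds are ratios of geometric mean intensities, and "at least" marks a fold in which 1 or more arrays of the dimmer tissue did not exceed their background limit. Background limits were 57.5 and 84.5 on the suspensor arrays and lay between 88.5 and 136 on the chalazal endosperm arrays. Between 58.4% and 61.5% of probe sets exceeded them in suspensor and between 44.8% and 56.8% in chalazal endosperm. For the GAPDH control, the 3' probe set read 7.10 and 5.45 times the 5' one in suspensor. In chalazal endosperm this ratio was 27.7, 16.1 and 10.8. The groups do not overlap in that ratio, and its part in the differences below was not tested. Array pairs correlated at r = 0.939 within suspensor, 0.864 to 0.883 within chalazal endosperm and 0.586 to 0.637 between the tissues, over probe sets, which are not independent.

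Neither label could be checked against all of its markers. None of 8 suspensor markers and 1 of 8 chalazal endosperm markers had a probe set that names it alone here. The measured one was AGL33, a type I MADS-box gene, at 4.12 and 7.20 in suspensor against 12979.9, 13006 and 9599 in chalazal endosperm (at least 168-fold lower, adjusted p = 1e-11). The next highest compartment for AGL33 was chalazal seed coat, at 614 ± 101.4 (SD, n = 2). Of 4 measured embryo proper markers, 3 were higher in suspensor and the fourth, YAB3, was not called. The receptor kinase gene CR4 (ACR4) measured 494 and 1024 in suspensor against 5.68, 6.90 and 169 in chalazal endosperm. The calls of BBM and PHV, regulators of embryo development, were lost without suspensor 2. CR4 stood at 2910.1 ± 1162 in embryo proper (SD, n = 2), above both suspensor arrays. IKU2, a receptor kinase gene of endosperm growth and a marker of micropylar endosperm, gave 117 and 186 in suspensor against 7.59, 5.56 and 4.08 in chalazal endosperm and 849 ± 182 in micropylar endosperm (SD, n = 2). It was called higher in suspensor, but not without suspensor 2. SWEET10, a marker of chalazal seed coat, exceeded background on 0 suspensor arrays and 1 chalazal endosperm array (26.0 and 1.48 in suspensor, 11.2, 26.3 and 108 in chalazal endosperm) and stood at 6520.0 in chalazal seed coat. Of the other chalazal and general seed coat markers, SWEET4 and BAN were not called, and DFR, a flavonoid enzyme gene, was at 631 and 744 in suspensor against 44.7, 298 and 564 in chalazal endosperm beside 31040.3 in general seed coat. Of 2 peripheral endosperm markers, AGL62 was lower in suspensor and MPC was not called, at 55.8 and 72.5 in suspensor against 308, 75.6 and 189.7 in chalazal endosperm. How much RNA of neighbouring tissue each capture held was not tested. In captured tissue, fewer cells of a type and less RNA per cell cannot be told apart.

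The tissues differed in 6401 of 22746 probe sets, 28.1% of those tested. Of these, 3903 (17.2%) were higher and 2498 (11.0%) lower in suspensor. The arrays of both tissues did not overlap, with suspensor higher, in 5942 probe sets (26.1%), and with suspensor lower in 5396 (23.7%). The split of the calls rests on how arrays are put on 1 scale. With arrays shifted to a common 75th percentile, 2874 were higher and 4279 lower in suspensor, and the median difference over all probe sets was -0.48 instead of -0.05. The 75th percentile of intensity was 532 to 560 in suspensor and 388 to 414 in chalazal endosperm. All 2874 higher calls and 2498 of the 4279 lower calls of that setting were also calls of the main scaling, and no call changed direction. The count rested on both suspensor arrays: 2795 were higher and 1632 lower without suspensor 1, and 2617 and 1600 without suspensor 2.

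The 2 sides of the comparison differed in shape. The largest differences were on the chalazal endosperm side, where 61 called probe sets passed 8 on the log2 scale, against 5 on the suspensor side. At lower cut-offs the order was reversed. The suspensor side had 496 beyond 4, against 420, and 2535 beyond 2, against 1331. These counts are of the main scaling and were not made with a common 75th percentile, which moved the median difference over all probe sets to -0.48. The median absolute difference of the called probe sets was 2.35 on the suspensor side and 2.07 on the chalazal endosperm side. Of the 2498 probe sets lower in suspensor, 1930 (77.3%) had their highest mean of the 7 compartments in chalazal endosperm. Of the 3903 higher in suspensor, 1225 (31.4%) had their highest mean in suspensor itself. For 796 it was in embryo proper, for 638 in general seed coat, for 440 in micropylar endosperm, for 427 in chalazal seed coat and for 377 in peripheral endosperm. A compartment of the highest mean is a description and was not tested.

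**Figure D1:**
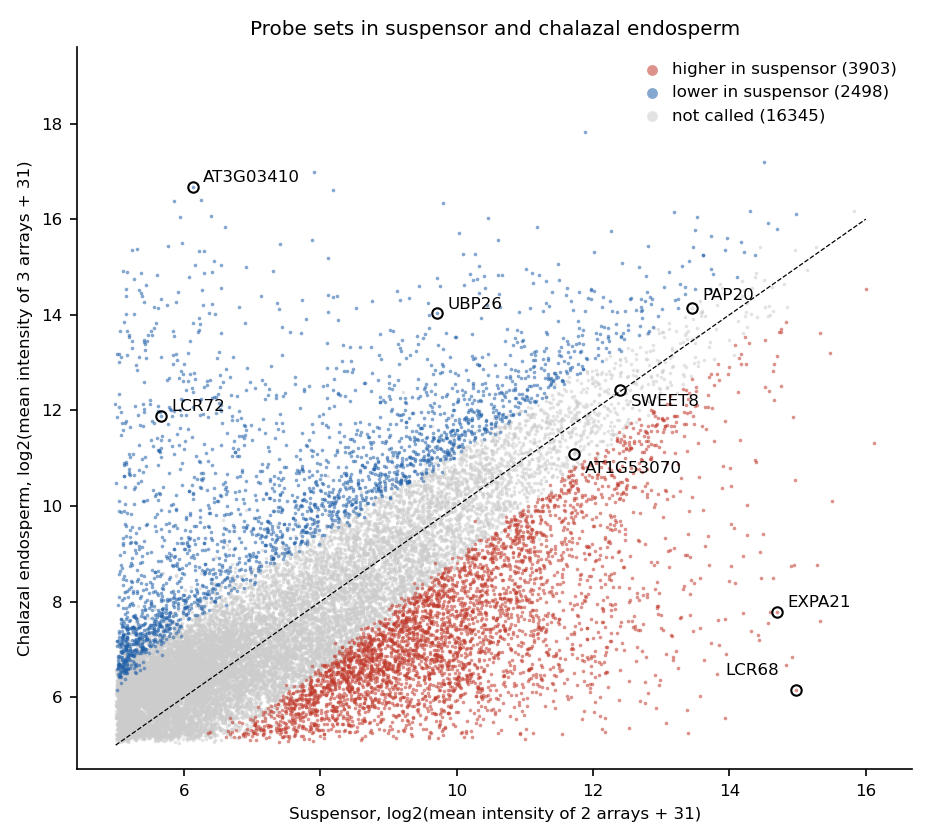
Each point is 1 probe set, with log2(mean intensity + 31) of 2 suspensor arrays on the x axis and of 3 chalazal endosperm arrays on the y axis; the dashed line marks equal levels. The 3903 probe sets higher in suspensor are red, the 2498 lower are blue and those not called are grey, and circles mark 8 genes described in the text, with LCR68 far to the right and AT3G03410 at the top left.

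The gene furthest to the suspensor side was LCR68 (PDF2.3), which encodes a small cysteine-rich protein of the plant defensin type. It measured 31988 and 32303 in suspensor against 14.5, 104 and 3.10 in chalazal endosperm. Both suspensor arrays lay far above all chalazal endosperm arrays, none of which exceeded background, and the difference was 9.08 ± 0.62 (SE), at least 281-fold higher with limma's adjusted p = 1e-11. LCR68 stood at 2050.1 ± 722 in embryo proper and 6526 ± 441 in chalazal seed coat (SD, n = 2). EXPA21, an expansin gene of the family that loosens cell walls, measured 29464 and 23377 in suspensor against 286, 97.5 and 189 in chalazal endosperm (at least 135-fold higher, adjusted p = 4.3e-13). Its highest mean was in micropylar endosperm, at 72446 ± 15571 (SD, n = 2). LCR59, another small cysteine-rich gene, followed the same order, at 14894 and 12256 in suspensor against 154, 7.78 and 166 in chalazal endosperm and 56008 ± 24147 in micropylar endosperm.

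The other 12 of the 15 genes named by the size of the difference carry only locus names here. AT2G28680 had the highest suspensor level of the 15, at 46053 and 33921 in suspensor against 765, 113 and 337 in chalazal endosperm. AT2G18340 measured 16148 and 15588 in suspensor against 20.6, 147 and 99.4 in chalazal endosperm, and AT3G05600 measured 27431 and 22104 in suspensor against 157, 53.3 and 357 in chalazal endosperm. AT3G62320, with 5912 and 5863 in suspensor against 5.24, 10.4 and 14.7 in chalazal endosperm, and AT3G29375, with 4899.9 and 4305 in suspensor against 17.3, 3.38 and 3.29 in chalazal endosperm, were dimmer. In all of them the lowest suspensor array lay above the highest chalazal endosperm array, which the choice of the 15 genes required. AT3G10100, whose probe set may also read related genes, AT5G14860, AT3G46860, AT1G71691, AT3G62480, AT5G02550 and AT1G56620 completed the set. Over the 15 the folds ran from at least 40.2 to at least 281, all were lower bounds, and the highest adjusted p was 2.2e-07. Of these genes, 10 had their highest mean in suspensor and 5 in micropylar endosperm. The micropylar level was a median 20.3% of the suspensor level, the embryo proper level 9.23% and the peripheral endosperm level 3.87%. The medians of general seed coat, chalazal seed coat and chalazal endosperm were each under 1% and are given no order, since chalazal endosperm has only a bound for these genes.

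On the other side, the gene furthest from suspensor was AT3G03410, which measured 56.3 and 21.7 in suspensor against 109037, 94905 and 110846 in chalazal endosperm. Neither suspensor array exceeded background, and the difference was -10.59 ± 0.58 (SE), at least 1501-fold lower in suspensor (adjusted p = 2.8e-13). AT1G07690 followed at 30.8 and 22.9 in suspensor against 86964, 108468 and 62053 in chalazal endosperm (at least 1199-fold lower). CYP79A2, a cytochrome P450 gene that turns phenylalanine into an oxime on the way to a glucosinolate, measured 5.95 and 0.840 in suspensor against 32345, 32433 and 28134 in chalazal endosperm (at least 443-fold lower, adjusted p = 2.8e-13). SBT4.13, a subtilase gene that codes for a secreted serine protease, measured 7.71 and 7.46 in suspensor against 26294, 29807 and 26863 in chalazal endosperm (at least 396-fold lower). In each of these 4 genes the lowest chalazal endosperm array lay far above both suspensor arrays, and genes with overlap could not enter the named set.

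The remaining 11 named on this side, from AT2G42100 (54.9 and 5.75 in suspensor against 79286, 80366 and 44080.0 in chalazal endosperm) to AT3G01880 (10.5 and 8.71 in suspensor against 23784, 29241 and 17702 in chalazal endosperm), carry locus names only. They are AT2G42100, AT2G15325, AT3G13370, AT3G60700, AT3G09140, AT5G38195, AT2G19970, AT5G17470, AT4G35985, AT1G72580 and AT3G01880. All 15 had their highest mean in chalazal endosperm, and no suspensor array exceeded background for any of them. The folds ran from at least 331 to at least 1501. The second tissue was the chalazal seed coat, at a median 3.99% of the chalazal endosperm level, with a range of 1.40% to 7.42%.

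**Figure D2:**
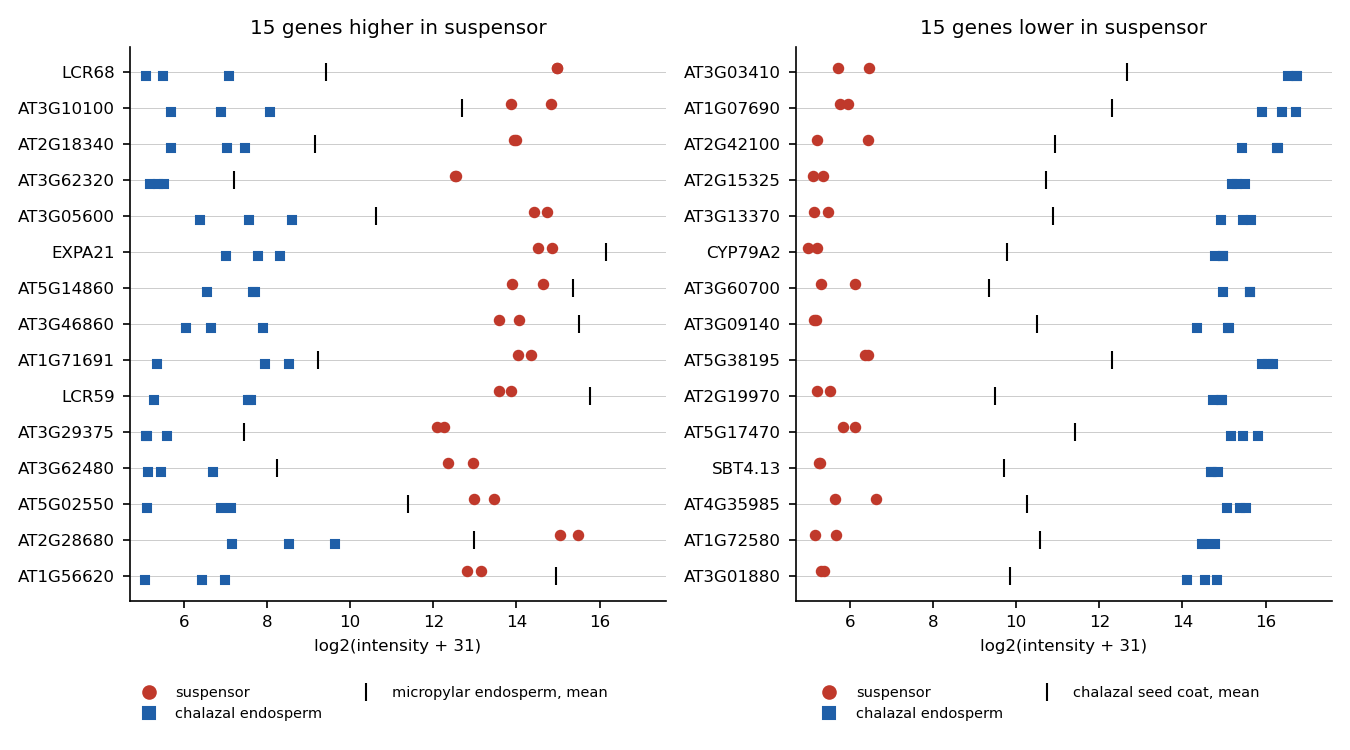
Each row is 1 gene, with log2(intensity + 31) of every suspensor array (circles) and every chalazal endosperm array (squares) on the x axis; the left panel holds the 15 genes higher in suspensor and the right panel the 15 lower. No gene shows overlap of the tissues, which the choice of genes required. Black ticks mark the mean of micropylar endosperm on the left, which passes the suspensor in 5 genes, and of chalazal seed coat on the right, which stays between the tissues.

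Genes high in both tissues and low elsewhere were sought with the stricter question of whether suspensor and chalazal endosperm each exceeded all 5 other compartments. Of 22746 probe sets, 2 passed (0.00879%), PAP20 and AT1G53070. PAP20, named as a purple acid phosphatase, a family that frees phosphate from organic compounds, measured 10639.6 and 11611 in suspensor and 19254, 19792 and 15159 in chalazal endosperm. It stood at 25.1 ± 2.09 in embryo proper and 76.4 ± 60.3 in peripheral endosperm, and at 489.6 ± 381 in chalazal seed coat, 397 ± 267 in micropylar endosperm and 292 ± 189 in general seed coat (SD, n = 2). The lower of both tissues was 27.2-fold above the highest other compartment (limma, one-sided, adjusted p = 8.9e-05). Between suspensor and chalazal endosperm, PAP20 differed by -0.69 ± 0.52 (SE) on the log2 scale, which did not pass (adjusted p = 0.355), although the suspensor arrays lay below the chalazal endosperm arrays. The only other gene with a PAP symbol, PAP85, was matched by its symbol alone, which does not make it a purple acid phosphatase. PAP85 was not called, at 184 and 25.9 in suspensor against 51.7, 55.8 and 84.7 in chalazal endosperm.

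AT1G53070 measured 3753 and 2942 in suspensor and 3140.3, 1461 and 1858 in chalazal endosperm, with overlapping arrays and a difference of 0.69 ± 0.56 (SE) (adjusted p = 0.403). Its highest other compartment was micropylar endosperm, at 165 ± 93.7 (SD, n = 2), so that the lead was at least 11.2-fold (adjusted p = 0.0073). This call was lost without suspensor 1 (adjusted p = 0.198), suspensor 2 (0.0619), chalazal endosperm 1 (0.128), embryo proper 2 (0.419), micropylar endosperm 1 (1.0) or chalazal seed coat 2 (0.347). PAP20 passed without any single array. At an unadjusted p under 0.05, 24 probe sets were above every other compartment in both tissues. By level alone, both tissues led every other compartment by 1 or more on the log2 scale in 24 probe sets, by 2 or more in 4 and by 3 or more in 2.

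The test asks for a lead over the micropylar endosperm, which surrounds the suspensor, and over the chalazal seed coat, which adjoins the chalazal endosperm. With these 2 compartments left out, 14 probe sets were above embryo proper, peripheral endosperm and general seed coat in both tissues (0.0615%), of which 8 name 1 gene. In 9 of the 14 the micropylar mean was above the lower of both tissues. TBL41, of a family that acetylates wall polymers, measured 14068 and 8591 in suspensor against 46898, 38699.8 and 45752 in chalazal endosperm, with 37859.8 ± 16512 in micropylar endosperm (SD, n = 2). It was lower in suspensor (3.97-fold, adjusted p = 0.00247; without suspensor 2 the call was lost, adjusted p = 0.0755). AT5G25410 measured 11988 and 10683 in suspensor and 17551, 14816 and 13579.8 in chalazal endosperm, with 42346 ± 14770.1 in micropylar endosperm. SK16, an SKP1-like gene of ubiquitin ligases, measured 1902 and 1141 in suspensor against 31143, 28138 and 28316 in chalazal endosperm, 19.8-fold lower in suspensor (adjusted p = 2.7e-08). The other genes were AT1G60970, AT3G11920 and AT4G23080, with suspensor means of 7099, 966 and 2941 and chalazal endosperm means of 2414, 2653 and 577 in the same order. Of the 14, 3 were higher and 4 lower in suspensor, and 7 were not called. Against the mean of the 5 other compartments, 95 probe sets were high in both (0.418%).

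**Figure D3:**
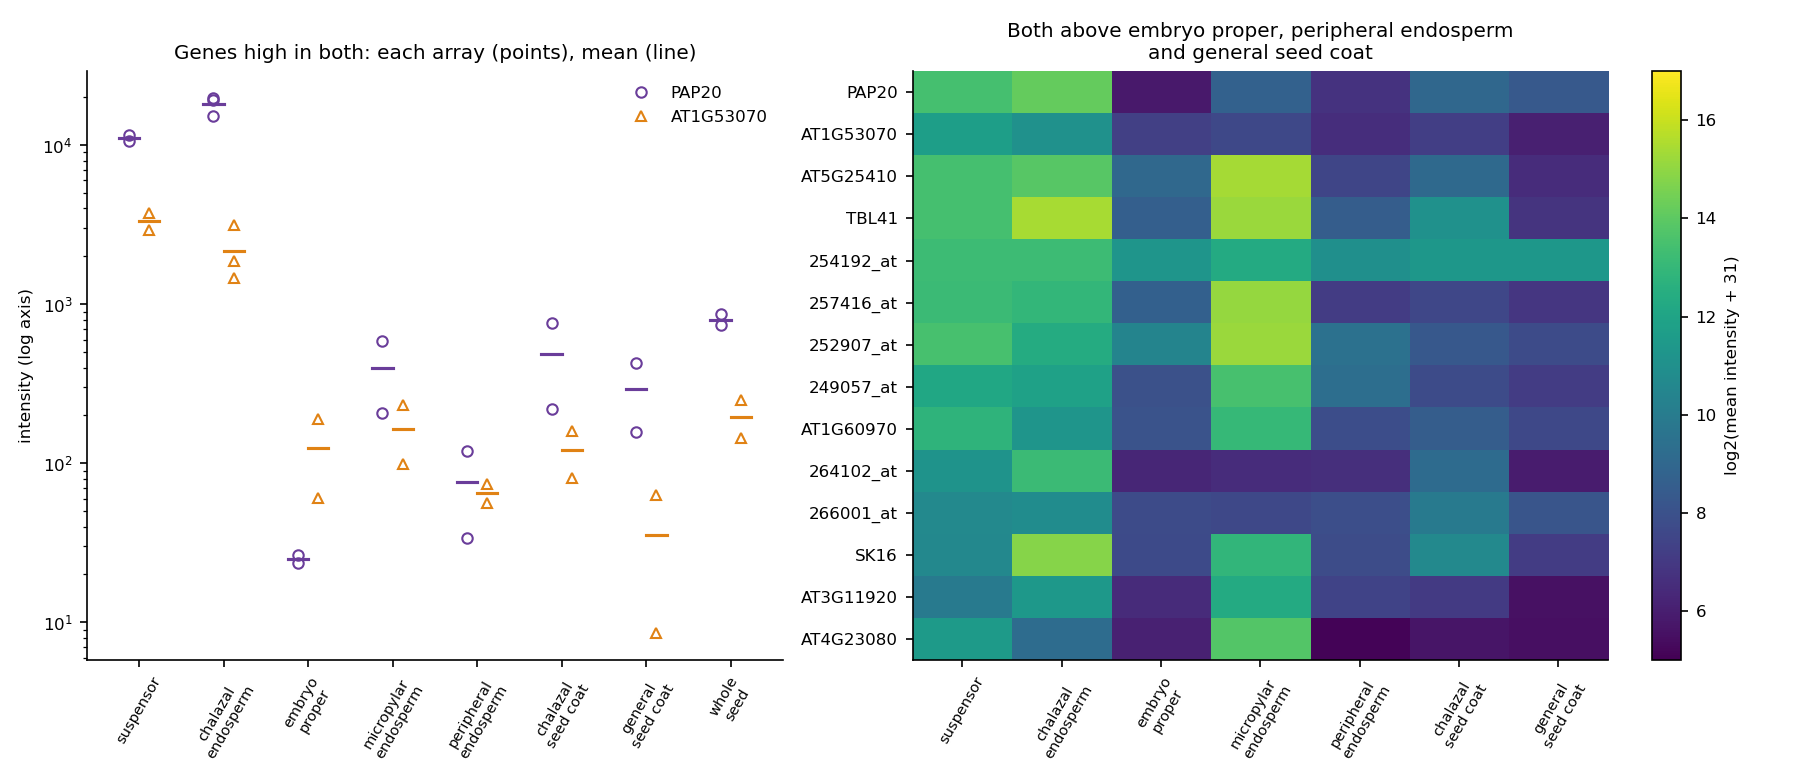
Left, intensity on a log axis of PAP20 (circles) and AT1G53070 (triangles) on each array of the 7 compartments and whole seed, with lines at the means. Right, log2(mean intensity + 31) as colour for the 14 probe sets above embryo proper, peripheral endosperm and general seed coat in both tissues, 6 of them unnamed and labelled by probe set; PAP20 and AT1G53070, at the top, are darker in every other compartment, while TBL41 and AT5G25410 are also bright in micropylar endosperm.

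Transporters were examined next, as both tissues are thought to pass nutrients. Of 21 measured sugar transporter genes, 4 were higher and 0 lower in suspensor and 17 were not called. This is 19.0% called, against 28.1% of all probe sets, of which 17.2% were higher and 11.0% lower. The median difference was -0.04, against -0.05 over all probe sets. SWEET7, of the sugar efflux family, measured 868 and 1105 in suspensor against 52.1, 4.45 and 6.84 in chalazal endosperm (at least 8.57-fold higher, adjusted p = 1.7e-06). SWEET9, the sucrose transporter of nectaries, measured 973 and 2274 in suspensor against 42.1, 4.20 and 125 in chalazal endosperm (at least 11.6-fold higher, adjusted p = 2.8e-06). Both had their highest mean in suspensor, followed by 307 in general seed coat for SWEET7 and 372 in embryo proper for SWEET9. TMT1, a sugar importer of the vacuole membrane, and AtVEX1 (SWEET5) were the other genes called, TMT1 at 351 and 716 in suspensor against 17.1, 153 and 22.2 in chalazal endosperm and AtVEX1 at 465 and 161 in suspensor against 74.4, 50.3 and 8.88 in chalazal endosperm. TMT1 was not called without suspensor 2, nor AtVEX1 without suspensor 1 or chalazal endosperm 3. With a common 75th percentile, 4 sugar transporters were higher and 1 lower.

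SWEET8 was bright in both and not called, with 5673 and 5065 in suspensor and 6093, 5536 and 4850.1 in chalazal endosperm, a difference of -0.03 ± 0.39 (SE). Its highest mean was in micropylar endosperm, at 18546 ± 981 (SD, n = 2), and stood at 5086 ± 2858 in peripheral endosperm. Among 12 amino acid and peptide transporters, 1 was called, or 3 lower with a common 75th percentile. AT3G25280 (NPF4.2), of the nitrate and peptide transporter family, measured 11.8 and 7.10 in suspensor against 2928, 2250.1 and 2151 in chalazal endosperm (at least 34.7-fold lower, adjusted p = 1.7e-08), with no other compartment mean above 136. MTP11, a manganese transporter, was the 1 of 5 phosphate, sulfate and metal transporters called, at 927 and 2094 in suspensor against 116, 44.4 and 164 in chalazal endosperm (at least 9.94-fold higher). None of 4 proton pump genes was called: VHA-A2, a vacuolar pump subunit, had 625 and 593 in suspensor against 1123, 1549.9 and 1417 in chalazal endosperm with adjusted p = 0.0626. NRT2.5, the 1 nitrate transporter measured, and all 15 cation exchanger and glutamate receptor genes were not called. No gene known here to be an ABC transporter was measured. ATATH8 matched that list by its symbol alone, which does not make it a transporter. It was at 183 and 145 in suspensor against 4.94, 30.0 and 77.4 in chalazal endosperm (adjusted p = 0.0410). Without suspensor 1, suspensor 2, chalazal endosperm 1 or 2 it was not called.

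Small cysteine-rich proteins of the defensin, RALF, EC1 and thionin families act as secreted peptides in defence and cell signalling. Of 27 measured, 10 were higher and 3 lower in suspensor (48.1% called, against 28.1% of all probe sets). The median difference was 0.66, and 0.61 and 0.23 with quantile and common 75th percentile scaling. With a common 75th percentile, 9 were higher and 5 lower. LCR24 measured 35878 and 28086 in suspensor against 1793, 1481 and 1086 in chalazal endosperm (22.3-fold higher, adjusted p = 5.5e-09), and 103624 ± 55949.9 in micropylar endosperm (SD, n = 2). RALFL34, a RALF peptide gene, measured 2311 and 3470.2 in suspensor against 156, 28.7 and 3.76 in chalazal endosperm (at least 22.9-fold higher), and RALFL18 measured 1281 and 924 in suspensor against 49.4, 20.0 and 79.5 in chalazal endosperm. In the opposite direction, RALFL28 measured 9.77 and 63.4 in suspensor against 29094, 27365 and 28023 in chalazal endosperm (at least 384-fold lower, adjusted p = 1.7e-12), and LCR72 (PDF2.6) measured 33.2 and 6.04 in suspensor against 3179, 3995 and 4131 in chalazal endosperm (at least 53.7-fold lower, adjusted p = 8.4e-08). The list held a difference beyond 8 on the log2 scale in each direction. LCR68 and LCR72 are next to each other on chromosome 2 in the TAIR10.1 gene order, with PDF2.1 on the other side of LCR68. PDF2.1 was higher in suspensor, at 893 and 365 in suspensor against 21.3, 18.5 and 12.2 in chalazal endosperm (at least 5.00-fold, adjusted p = 8.3e-05). LCR69, the third gene before LCR68, was not called, at 1122 and 491 in suspensor against 529, 24.8 and 320.2 in chalazal endosperm. These 4 probe sets carry no mark of probes shared between genes.

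**Figure D4:**
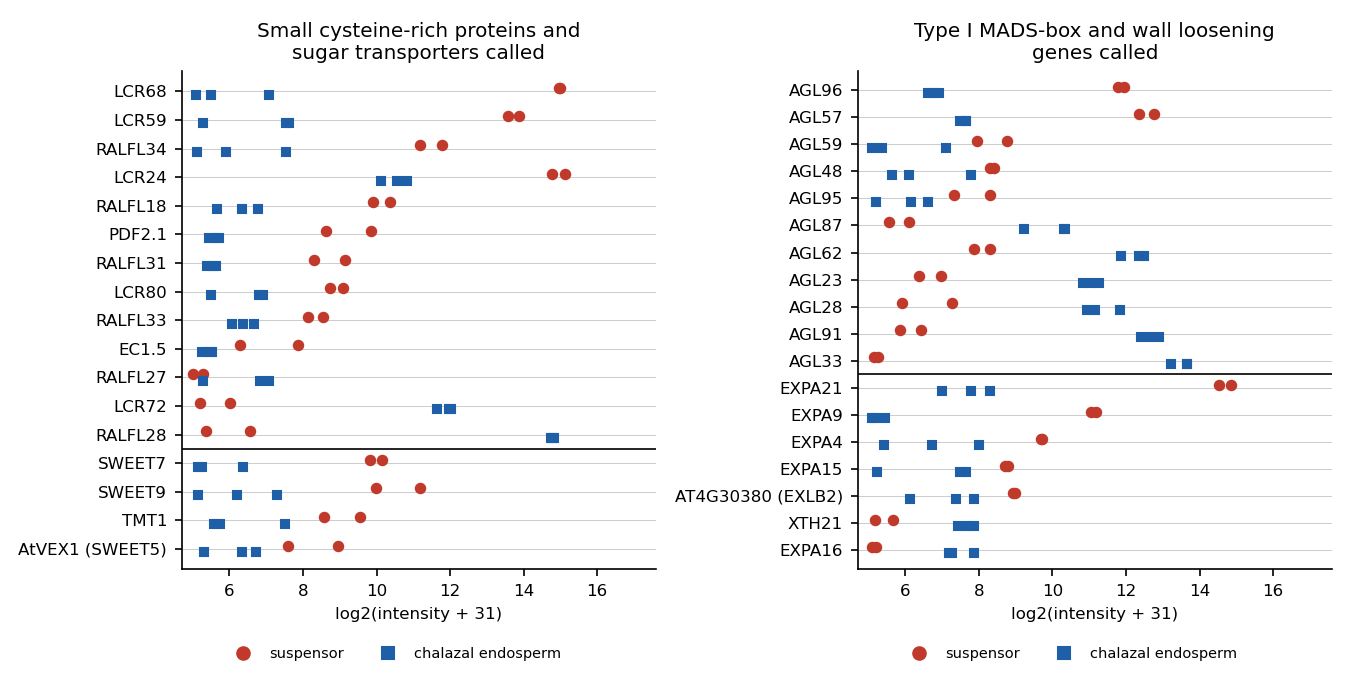
Each row is 1 called gene, with log2(intensity + 31) of every suspensor array (circles) and chalazal endosperm array (squares). The left panel shows 13 small cysteine-rich genes above 4 sugar transporters, the right panel 11 type I MADS-box genes above 7 wall loosening genes. Both directions occur in each list but the sugar transporters, of which 19.0% were called, against 28.1% of all probe sets.

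Type I MADS-box genes, transcription factors known from the female gametophyte and endosperm, split between the tissues. Of 22 measured, 5 were higher and 6 lower in suspensor and 11 were not called (50.0% called, against 28.1% of all probe sets). The median difference was -0.37, against -0.05 over all probe sets. Lower in suspensor were AGL33, AGL91, AGL28, AGL23, AGL62 and AGL87. AGL91 measured 55.5 and 26.3 in suspensor against 6386, 7606 and 5405 in chalazal endosperm (at least 91.8-fold lower, adjusted p = 1.2e-09). AGL62, which delays cell wall formation in the endosperm, measured 200.7 and 284 in suspensor against 5713, 5215 and 3659.9 in chalazal endosperm (20.0-fold lower, adjusted p = 1.6e-07) and 2942 ± 997 in peripheral endosperm (SD, n = 2). Higher in suspensor were AGL96, at 3519.8 and 3915 in suspensor against 67.6, 89.1 and 77.7 in chalazal endosperm (at least 32.5-fold), and AGL57, at 6959 and 5201 in suspensor against 168, 148 and 169 in chalazal endosperm (37.4-fold, adjusted p = 9.3e-09). Both were brightest in micropylar endosperm, at 13476 and 20211, as were the other 3 higher genes, AGL59, whose probe set may cross-hybridise, AGL48 and AGL95. The higher count rests on single arrays: it was 2 without suspensor 1 or without chalazal endosperm 1, and 3 without suspensor 2 or chalazal endosperm 2, while the lower count was 6, or 8 without chalazal endosperm 3. It was also 3 with a common 75th percentile, with 8 lower.

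Of 29 wall loosening genes, 5 were higher and 2 lower in suspensor (24.1% called, against 28.1% of all probe sets; median difference -0.04). After EXPA21, the expansin gene EXPA9 measured 2087 and 2305 in suspensor against 3.37, 5.05 and 12.8 in chalazal endosperm (at least 19.2-fold higher, adjusted p = 2.4e-08), with no other compartment mean above 245, its level in embryo proper. EXPA4 measured 812 and 788 in suspensor against 75.2, 228 and 11.5 in chalazal endosperm (at least 5.90-fold higher). Without suspensor 1, suspensor 2 or chalazal endosperm 1 the higher count was 3, and with a common 75th percentile it was 3, with 6 lower. The lower count was 4 without chalazal endosperm 1 and 3 without suspensor 1 or chalazal endosperm 3. Of 12 cellulose and callose synthesis genes, 3 were higher and 1 lower (33.3% called, near the 28.1% of all probe sets). GH9A3, a wall glucanase gene, measured 885 and 1488 in suspensor against 9.46, 129 and 79.3 in chalazal endosperm (at least 10.04-fold higher). CSLC12, of the xyloglucan backbone synthase family, was lower at 123 and 3.11 in suspensor against 327, 481 and 400.3 in chalazal endosperm. Without suspensor 2, only GH9A3 of these 12 was called. Of 4 pectin genes, 2 were higher, AT4G02300 at 614 and 627 in suspensor against 36.1, 18.2 and 60.3 in chalazal endosperm and ATPMEPCRB, a call lost without either suspensor array or without chalazal endosperm 2 or 3. In the TBL family, 2 of 23 were higher and 2 lower (17.4% called, against 28.1% of all probe sets, median difference 0.20). Without suspensor 2 the lower count was 1, and with quantile scaling 4 were higher and 3 lower. TBL45 measured 2363 and 2003 in suspensor against 3.07, 8.68 and 104 in chalazal endosperm (at least 18.1-fold higher), and TBL43 measured 13.7 and 9.22 in suspensor against 10572, 16162 and 7422 in chalazal endosperm (at least 155-fold lower, adjusted p = 2.2e-10).

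Of 40 subtilase and serine carboxypeptidase-like genes, 7 were higher and 6 lower in suspensor (32.5% called, near the 28.1% of all probe sets; median difference -0.26). Next to SBT4.13, scpl21 measured 298 and 226 in suspensor against 22946, 26629 and 13672 in chalazal endosperm (78.3-fold lower, adjusted p = 3.5e-10), and scpl47 measured 114 and 180.4 in suspensor against 3717, 8304 and 3700.0 in chalazal endosperm (33.9-fold lower). SBT5.4 lay on the suspensor side, at 2288 and 1848 in suspensor against 26.6, 35.6 and 15.1 in chalazal endosperm (at least 18.0-fold higher, adjusted p = 7.4e-09), and was highest in micropylar endosperm at 9359.7 ± 119 (SD, n = 2). The lower count was 4 without suspensor 1, suspensor 2 or chalazal endosperm 2, and the higher count 4 without suspensor 2. Of 6 proteases of cell death and senescence, DELTA-VPE, which acts in the dying inner seed coat, was higher, at 625 and 561 in suspensor against 249.6, 70.0 and 187 in chalazal endosperm. It was not called without suspensor 1. It stood at 16613 ± 914 in general seed coat. GAMMA-VPE, a vacuolar processing enzyme, was bright in both tissues and not called, at 2738 and 3133 in suspensor and 5654, 4143 and 4149 in chalazal endosperm.

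The response regulator genes RR19 and RR23, of the family that relays cytokinin signals, were lower in suspensor. RR19 measured 16.1 and 57.9 in suspensor against 8744, 5707 and 6441 in chalazal endosperm (at least 97.9-fold lower, adjusted p = 1e-10), and RR23 measured 167 and 62.8 in suspensor against 3047, 2971 and 2774 in chalazal endosperm (28.6-fold lower, adjusted p = 1.5e-07). RR19 reached 572 ± 371 in peripheral endosperm (SD, n = 2), its next highest compartment. The other 5 of 7 cytokinin genes were not called. Of 16 auxin genes, 2 were higher and 2 lower (25.0% called, near the 28.1% of all probe sets, median difference -0.08). IAA30, an Aux/IAA gene of auxin response, measured 815 and 881 in suspensor against 93.4, 73.1 and 36.97 in chalazal endosperm (at least 7.42-fold higher, adjusted p = 8e-05), and YUC11, an auxin synthesis gene, 289 and 274 in suspensor against 8.46, 102.9 and 32.6 in chalazal endosperm. IAA34 and YUC4 were lower. IAA34 was also not called without chalazal endosperm 2 or 3, nor YUC11 without chalazal endosperm 1. Without suspensor 1 or without suspensor 2, IAA30 was the only one of the 16 called. GID1A, a gibberellin receptor gene, measured 622 and 675 in suspensor against 117, 18.0 and 145 in chalazal endosperm (at least 4.82-fold higher, adjusted p = 0.00042), and the other 4 gibberellin genes were not called. EIN3, the transcription factor of ethylene response, measured 801 and 909.6 in suspensor against 4.72, 114 and 123.9 in chalazal endosperm (at least 6.68-fold higher, adjusted p = 2.9e-05), while BRL1 was not called.

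The UGT family, which attaches sugars to hormones, flavonols and other small molecules, had 6 of 51 genes higher and 6 lower (23.5% called, against 28.1% of all probe sets; median difference -0.06). UGT76C2, which glucosylates cytokinins, measured 1129.9 and 1441 in suspensor against 29.6, 16.9 and 78.6 in chalazal endosperm (at least 11.2-fold higher, adjusted p = 3.2e-06), and was at 633 ± 10.3 in embryo proper (SD, n = 2). UGT74D1, which glucosylates auxin, measured 95.3 and 25.6 in suspensor against 8576, 13478 and 6396 in chalazal endosperm (at least 122-fold lower, adjusted p = 4.6e-11). UGT84B2 measured 1717 and 839.6 in suspensor against 26.2, 28.3 and 23.1 in chalazal endosperm (at least 10.5-fold higher) and 6659 ± 3193 in micropylar endosperm. Without suspensor 1, without suspensor 2 or without chalazal endosperm 1, the lower count was 2. Among 22 beta-glucosidase genes 3 were lower and 0 higher (13.6% called, against 28.1% of all probe sets, median difference -0.75). The counts were 5 lower and 1 higher without chalazal endosperm 2, and 7 and 0 with a common 75th percentile. BGLU44 measured 191 and 299 in suspensor against 17941, 18756 and 14662 in chalazal endosperm (71.3-fold lower, adjusted p = 1.9e-11) and BGLU15 382 and 232 in suspensor against 8222, 7246 and 6199 in chalazal endosperm (24.1-fold lower). Of 8 aldehyde dehydrogenase genes, 3 were higher (37.5% called, against 28.1% of all probe sets). ALDH10A8 had the largest difference, at 2337 and 3149 in suspensor against 97.9, 18.2 and 3.58 in chalazal endosperm (at least 23.7-fold, adjusted p = 2.8e-10). Without suspensor 2 or chalazal endosperm 2 the others of these 3 lost their calls. None of 11 tau class glutathione transferase genes was called. DFR was called higher among 3 flavonoid genes, but not with quantile or common 75th percentile scaling, nor without suspensor 1, suspensor 2 or chalazal endosperm 1. SBE2.2, a starch branching enzyme gene, was the 1 of 4 starch and sucrose genes called, at 1764 and 1464 in suspensor against 68.5, 151 and 230.0 in chalazal endosperm (at least 9.88-fold higher).

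Photosystem and Calvin cycle genes carried by the plastid genome were mostly lower in suspensor. Of 21 measured, 18 were lower and 0 higher, with a median difference of -1.35. Of all probe sets, 11.0% were lower and 17.2% higher, with a median difference of -0.05. The 21 are genes of photosystem subunits (psa and psb) and rbcL, a Calvin cycle gene, which was among the lower ones. With quantile scaling 15 were lower (median -1.06), with a common 75th percentile 21 (-1.78), without suspensor 1 they numbered 14 and without suspensor 2 they numbered 11. psbK, for a photosystem II subunit, measured 11353 and 7241 in suspensor against 95211, 83715 and 40379.9 in chalazal endosperm (7.56-fold lower, adjusted p = 2.1e-08). psbD, for a reaction centre protein of photosystem II, measured 6034 and 4938 in suspensor against 37392, 45207 and 21684 in chalazal endosperm (6.09-fold lower, adjusted p = 2.9e-08). Of the 21 genes, 18 were highest in peripheral endosperm. The 10 nuclear genes of the photosystems and the Calvin cycle had 1 higher, 1 lower and a median difference of -0.29. PRK, a Calvin cycle enzyme gene, was lower, at 540.4 and 879 in suspensor against 17815, 12543 and 6981 in chalazal endosperm (16.8-fold, adjusted p = 1.8e-07), and LHCB4.3, a light-harvesting gene, was higher, at 1194 and 1007 in suspensor against 65.3, 239 and 107 in chalazal endosperm (at least 7.47-fold). Of 16 ribosomal protein genes, mostly of the plastid type (rpl and rps), 5 were lower and 1 higher (37.5% called, against 28.1% of all probe sets). Their median difference was -0.57, or -0.16 with quantile scaling. Without suspensor 2 the lower count was 2, and with a common 75th percentile it was 10. Of 8 complex I genes of the mitochondrial genome, 2 were higher and 0 lower (25.0% called, near the 28.1% of all probe sets). They were nad9, at 3672 and 2890.5 in suspensor against 1457, 1654 and 878 in chalazal endosperm, and nad4. With a common 75th percentile or without suspensor 1, 0 were higher and 1 was lower, and without chalazal endosperm 2 or 3, 1 was higher. Of 15 organelle RNA editing genes, OTP43 alone was lower, a call lost without suspensor 1 or chalazal endosperm 2 or 3.

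Genes of protein turnover and of the membrane system differed in both directions. Of 34 ubiquitin enzyme genes, 10 were lower and 2 higher in suspensor (35.3% called, against 28.1% of all probe sets; median difference -0.64, -0.81 with quantile scaling and -1.06 with a common 75th percentile). The counts were 7 lower and 1 higher without suspensor 1, 7 and 2 without suspensor 2, and 15 and 2 with a common 75th percentile. UBP26, a ubiquitin protease that acts on histone H2B, measured 916 and 708 in suspensor against 16579.5, 21364 and 12297 in chalazal endosperm (20.3-fold lower, adjusted p = 2.1e-08), and no other compartment mean passed 1642. UBP19 measured 395 and 818 in suspensor against 8037, 9926 and 9544 in chalazal endosperm (16.1-fold lower), and UBC30, a ubiquitin-conjugating enzyme gene, 3251 and 4946 in suspensor against 44696, 51834 and 25309 in chalazal endosperm (9.69-fold lower). PUB22, a ubiquitin ligase gene, was higher, at 832 and 1681 in suspensor against 15.5, 17.2 and 132 in chalazal endosperm (at least 9.07-fold, adjusted p = 0.00015). Of 39 genes of secretion and vacuolar sorting, 6 were lower and 4 higher (25.6% called, against 28.1% of all probe sets; median difference -0.40). SEC22, a fusion protein gene of traffic between endoplasmic reticulum and Golgi, measured 2791 and 2873 in suspensor against 14263, 17549 and 12992 in chalazal endosperm (5.23-fold lower, adjusted p = 1.8e-06). These counts moved to 2 lower and 2 higher without suspensor 1, and to 4 lower and 1 higher without suspensor 2. With a common 75th percentile they were 16 lower and 2 higher.

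Of 11 autophagy genes, 4 were lower and 2 higher (54.5% called, against 28.1% of all probe sets; median difference 0.03). ATG8F, an autophagosome protein gene, measured 4265 and 4561 in suspensor against 14488, 13593 and 13359.6 in chalazal endosperm (3.13-fold lower, adjusted p = 6.9e-05). The 2 higher genes were ATG8B and ATG8G, and neither was called without suspensor 1 or without suspensor 2, and without suspensor 2 the lower count was 2. Of 15 tetraspanin membrane protein genes, 2 were higher and 3 lower (33.3% called, near the 28.1% of all probe sets). The counts were the same without any 1 of the chalazal endosperm arrays. TET4 measured 8.79 and 14.5 in suspensor against 11264, 11965 and 9882 in chalazal endosperm (at least 158-fold lower, adjusted p = 9.4e-10), and TET15 measured 2091 and 3004 in suspensor against 52.1, 9.80 and 198 in chalazal endosperm (at least 16.8-fold higher, adjusted p = 7.3e-06), with 3355 ± 274 in embryo proper (SD, n = 2). None of 6 CLE peptide genes was called.

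DME, a DNA glycosylase gene that removes DNA methylation and is known from the central cell, measured 1065 and 1353 in suspensor against 64.7, 61.5 and 89.4 in chalazal endosperm (at least 10.5-fold higher, adjusted p = 4.6e-07). The means of the other 5 compartments ran from 589.7 in micropylar endosperm to 1392 in peripheral endosperm. Of 22 bZIP transcription factor genes, 3 were higher and 2 lower (22.7% called, against 28.1% of all probe sets; median difference -0.25). bZIP19, of zinc deficiency response, measured 1614 and 1585 in suspensor against 8.97, 387 and 255 in chalazal endosperm (at least 6.94-fold higher). FD, of floral induction, measured 501 and 326 in suspensor against 8.78, 33.3 and 30.9 in chalazal endosperm (at least 3.54-fold higher). Neither of the 2 lower genes, EEL and BZIP53, was called without suspensor 2, and 1 of them was without suspensor 1, chalazal endosperm 1 or 3. PHV, the 1 homeodomain gene measured, was called higher, at 116 and 193 in suspensor against 61.9, 16.6 and 3.70 in chalazal endosperm, but not without suspensor 1, suspensor 2 or chalazal endosperm 2 or 3. Of 12 cell cycle genes, 1 was higher and 1 lower (16.7% called, against 28.1% of all probe sets). BUB3.2, of the spindle checkpoint family, was lower, at 97.1 and 256 in suspensor against 2091, 3121 and 1609 in chalazal endosperm (13.9-fold, adjusted p = 1.1e-05). PRL (MCM7), a replication helicase gene, was higher, at 1289 and 1649 in suspensor against 685, 275 and 527 in chalazal endosperm, a call lost without suspensor 1, suspensor 2 or chalazal endosperm 2. With quantile or common 75th percentile scaling, 4 cell cycle genes were lower. The mitotic kinase gene AUR1 was not called, at 153 and 267 in suspensor against 299, 293 and 272 in chalazal endosperm. Of 7 seed storage and maturation genes, 2 were lower. AT2G46140 (LEA27) measured 1512 and 763 in suspensor against 30728, 33717 and 24316 in chalazal endosperm (27.3-fold lower, adjusted p = 4.1e-10), and LEA4-5 measured 306 and 126 in suspensor against 1755, 2029 and 1849 in chalazal endosperm.

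**Figure D5:**
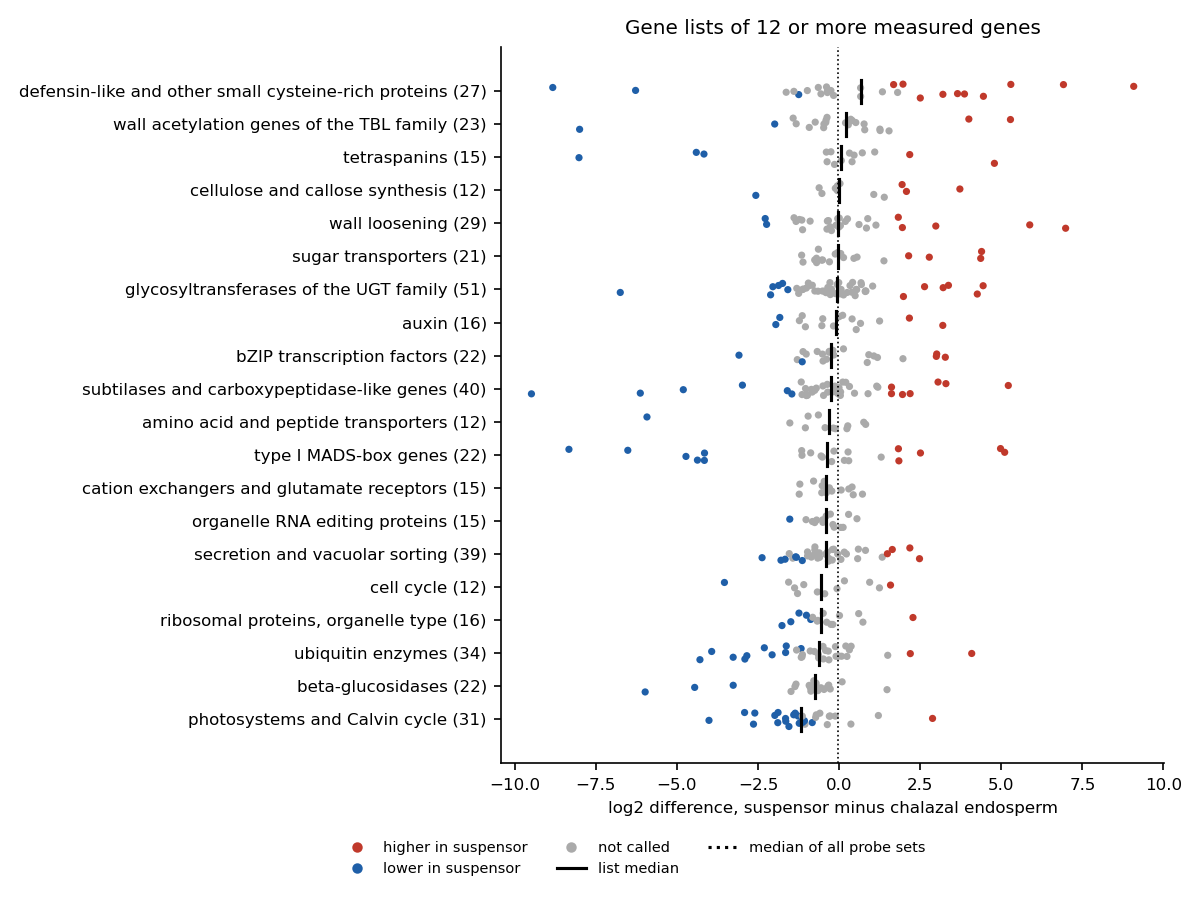
Each point is 1 gene of a list with 12 or more measured genes, placed by its log2 difference, suspensor minus chalazal endosperm; red genes were higher in suspensor, blue lower and grey not called. Black bars are list medians and the dotted line is the median of all probe sets, -0.05; the list of photosystem and Calvin cycle genes, at the bottom, has the lowest median, -1.16.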

How the data were processed

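RNA of laser-captured seed compartments was measured on 17 Affymetrix ATH1 arrays. The authors deposited 1 linear intensity for each probe set and array, made with GCOS per the submitters' processing notes, which give no settings here. The values themselves show 1 scaling factor per array: the mean after trimming 2% at each end was close to 500 on all 17 arrays.

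Without the 64 control probe sets, 22746 of 22810 entered the tests. log2(intensity + 31) was fitted with limma 3.58.1 in R 4.3.3, with 1 mean for each of 8 groups (9 residual degrees of freedom), an intensity trend and two-sided tests, and p-values were adjusted by Benjamini-Hochberg over all 22746 with a threshold of 0.05. A probe set counted as high in both tissues by the largest of 10 one-sided p-values, adjusted likewise. The background limit of an array is its highest value among 27 bacterial control probe sets that were not spiked in, a rule chosen after the values were seen. A dim array under its limit entered a fold at the limit. Only 13513 probe sets name 1 gene here, and 8730 are unnamed. Lists were matched by symbol, so a member need not belong to the family that its list names, and use the brightest probe set of a gene. The 15 named genes per direction had the largest differences among called probe sets of 1 gene, without overlap between tissues and with the brighter mean above the median of all probe sets. Other named genes are list and marker members, mostly those with the largest differences, and some were chosen after their values were seen. The members and lists were chosen with earlier results of these data known, and 14 lists were added after the files were seen.

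The code was tested on simulated data. Alternatives changed the offset, the scaling between arrays, the filter on dim probe sets, the variance model, the replicate block, the arrays in the fit and each replicate in turn. The number of arrays limits the precision. With a suspensor array left out, the single remaining one is taken to vary like the other groups.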

Additional observations from a re-analysis of the deposited data

How the results depend on the processing

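No call changed direction in any alternative. The count of probe sets lower in suspensor moved to 4279 with a common 75th percentile, and ranged from 1600 to 2409 with 1 array left out. Calls in either direction then ranged from 4217 to 6200. The other alternatives gave 5103 to 6545 calls. Genes high in both tissues numbered 1 with no offset and with array weights, 14 with both neighbouring compartments left out, 95 against the mean of the 5 other compartments, and 1 to 2 with 1 array left out. Some of these fits had fewer arrays or fewer comparisons, and the cause of the moves was not tested. With the replicate block, 3778 probe sets were higher and 2380 lower. Arrays of the same number had deviations from their group means that correlated at r = -0.0061 and -0.010. With only 2 suspensor arrays these deviations mirror each other, so the values cannot decide whether the number pairs arrays. Of 198 called list, marker and named genes, 121 were called in every alternative and 77 lost the call in 1 or more. All 419 values of the 30 named genes kept direction and call. Those 30 were chosen from the same data for the largest called differences without overlap, so this is no separate support for them. Dim probe sets set a limit, since 2734 of 3903 higher and 1167 of 2498 lower calls have only a bound as fold.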

Other observations

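Among genes called with a log2 difference beyond 4, 244 were higher and 255 lower in suspensor. In the TAIR10.1 gene order, 24 pairs of these 499 genes lie next to each other or 1 gene apart. In 20 pairs both genes differed in the same direction, 8 higher and 12 lower in suspensor, and in 4 pairs the directions were opposite. How many such pairs, and how many of the same direction, 499 genes picked at random would give was not tested. The counts therefore have no baseline. AT3G03410, the named gene with the largest difference on the chalazal endosperm side, had such a neighbour in AT3G03400, at 34.7 in suspensor and 5442 in chalazal endosperm (means of 2 and 3 arrays). The transporter gene AT3G25280 paired with AT3G25290, at 3.49 in suspensor and 549 in chalazal endosperm. AT5G02550, among the 15 genes furthest to the suspensor side, lies beside AT5G02540, at 1848 in suspensor and 15.5 in chalazal endosperm. Besides LCR68 and LCR72, opposite pairs were AT5G65370 with AT5G65380, AT5G24490 with AT5G24510, and AT1G72800 with AT1G72820. AT5G24490 stood at 7792 in suspensor and 308 in chalazal endosperm, and AT5G24510 at 39.1 in suspensor and 14576 in chalazal endosperm. Whether neighbours share probe sequence was not tested.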
